A study of Mus musculus with 13 samples.

Results

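The genes described here encode 10 proteins of the small nuclear ribonucleoproteins (snRNPs), the particles that build the spliceosome. They are Snrpa, Snrpa1, Snrpb, Snrpb2, Snrpc, Snrpd1, Snrpd2, Snrpd3, Snrpe and Snrpf, and they are 10 of the 22367 protein-coding genes of the GENCODE vM1 annotation. The family was chosen by a measured value, because Snrpb2 carried a peak with a very high score for endogenous AEBP2. The AEBP2 peaks at these genes are therefore a description, and no test was made on them.

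AEBP2 is an accessory subunit of Polycomb repressive complex 2 (PRC2), which trimethylates lysine 27 of histone H3 (H3K27me3), a mark of silent developmental genes. ChIP-seq, which sequences DNA recovered with an antibody against a protein or mark, was carried out in a WT mouse embryonic stem cell (mESC) line, 129/1 and XY. The 5 peak lists used here are 2 replicates of endogenous AEBP2, 2 replicates of H3K27me3 and 1 sample of FS2-AEBP2, from 13 samples in the series. No agent or altered allele was given for the endogenous samples, whereas FS2-AEBP2 is AEBP2 with a Flag-StrepII tag, made from a plasmid. The tagged protein was pulled down by another protocol and has no replicate, and the methods name E14 mESCs for it where the labels give the same line as for the rest. The AEBP2 antibody was a rabbit polyclonal made in the study with the full-length protein. The labels give the antibody of the mark as against H3K27, and the methods add the trimethylation. The SUZ12, input and AEBP2 KO samples were not analysed here, so the dependence of H3K27me3 peaks on AEBP2 was not tested. The series holds no AEBP2 ChIP from KO cells, so the dependence of AEBP2 peaks on the protein could not be tested.

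snRNPs recognise introns and catalyse their removal from pre-mRNA. Each of the U1, U2, U4 and U5 particles holds a ring of Sm proteins around its small nuclear RNA, placed there by the SMN complex, and Snrpb, Snrpd1, Snrpd2, Snrpd3, Snrpe and Snrpf encode ring members. Snrpa and Snrpc encode proteins A and C of the U1 particle, which binds the 5′ splice site, and Snrpa1 and Snrpb2 encode proteins A′ and B″ of the U2 particle, which sit together on its RNA and whose particle binds the branch point. These genes are active in all dividing cells.

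A promoter is taken as the stretch within 1 kb of a gene's start, and a gene is given a peak where at least 1 bp of a peak falls there. Each peak carries a whole-number score whose scale is not stated, so scores are read only within a list. The lists hold 2877 and 6779 peaks for AEBP2 replicates 1 and 2, 2884 for FS2-AEBP2, and 14112 and 9275 for H3K27me3 replicates 1 and 2. Read counts are not part of the lists and the depth is unknown, so a promoter without a peak is one where no peak was called, and not one shown to be unbound. H3K27me3 marked the promoters of 0 of 6 pluripotency genes and 6 of 6 lineage genes in both replicates, and AEBP2 had peaks at 0 of 6 and 5 of 6 of them in both replicates.

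Within the family, AEBP2 peaks lay at both genes for U2-specific proteins and at neither gene for U1-specific proteins. They also lay at 2 of the 6 Sm genes (Snrpb, and Snrpd1 in replicate 2 alone). Outside the family, 3 of 23 other U1 and U2 genes had AEBP2 in both replicates, among them Snrnp70 of U1 and Sf3a2 of U2. Replicate 1 had peaks at 3 of the 10 genes, against 9.08% of all promoters. Replicate 2 had peaks at 4 of the 10, against 22.3%. The 3 genes with a peak in both replicates were Snrpb2, Snrpa1 and Snrpb, against 8.44% of all promoters. No gene of the family had an H3K27me3 peak, against 17.0% of promoters in replicate 1, 17.7% in replicate 2 and 19.8% in either. No gene of the family had an FS2-AEBP2 peak, against 6.53%. AEBP2 in both replicates without H3K27me3 in either was thus recorded at 3 of 10 genes and at 537 of 22367 promoters (2.40%). That share of all promoters rises to 11.1% without AEBP2 replicate 1, the shorter list, where the family has 4.

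**Figure D1:**
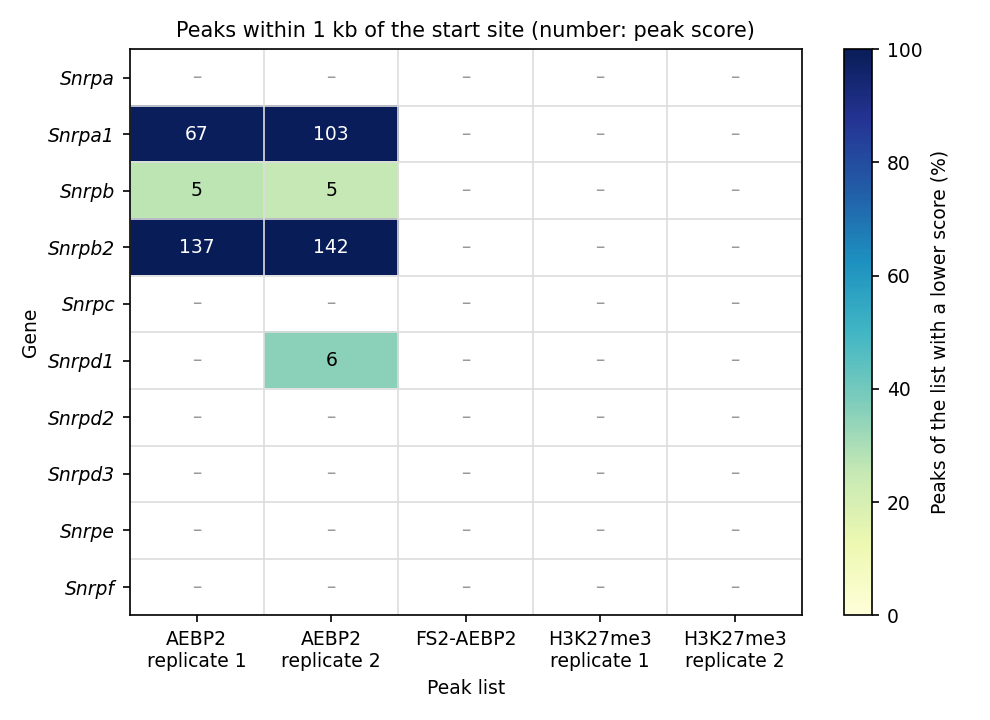
Scores of the promoter peaks of the 10 snRNP protein genes (rows) in the 5 peak lists (columns). A number is the peak score, the colour is the share of the list with a lower score (%), and a dash means no peak within 1 kb of the start site. Filled cells stand only in the AEBP2 columns, for Snrpb2, Snrpa1, Snrpb and Snrpd1.

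All 10 promoters held a CpG-island-like region, a stretch rich in GC and in CpG pairs. Among the 8797 promoters of that kind without H3K27me3, AEBP2 replicate 1 had peaks at 6.85%, replicate 2 at 27.7%, both at 6.0% and FS2-AEBP2 at 1.68%. Against this narrower set, as against all promoters, the absence of FS2-AEBP2 from the 10 genes stands beside a low share, and the 4 genes of replicate 2 beside a high share.

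The 250 bases before the start site are shown for the U2 genes Snrpb2 and Snrpa1, which have the highest AEBP2 scores of the family, and for Snrpa, a U1 gene with no peak in any list, to set the promoters side by side. They were read from the mm9 genome, 5′ to 3′ on the strand of the gene, and lie before the transcribed part. They are chr2:142888525-142888774 on the plus strand for Snrpb2, chr7:73204935-73205184 on the plus strand for Snrpa1 and chr7:27981291-27981540 on the minus strand for Snrpa. Capitals mark matches to GGGCGG (an SP factor word), TGACGTCA (CRE) and TGCGCA on either strand.
Snrpb2: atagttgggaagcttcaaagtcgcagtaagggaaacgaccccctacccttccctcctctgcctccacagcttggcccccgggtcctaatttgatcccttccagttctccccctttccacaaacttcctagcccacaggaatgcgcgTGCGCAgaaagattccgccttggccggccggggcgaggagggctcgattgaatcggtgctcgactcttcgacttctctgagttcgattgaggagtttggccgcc
Snrpa1: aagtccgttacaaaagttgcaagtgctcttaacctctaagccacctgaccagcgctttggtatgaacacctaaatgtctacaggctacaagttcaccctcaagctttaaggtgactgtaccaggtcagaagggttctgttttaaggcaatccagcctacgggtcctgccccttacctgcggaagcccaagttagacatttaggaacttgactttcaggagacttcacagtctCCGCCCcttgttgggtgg
Snrpa: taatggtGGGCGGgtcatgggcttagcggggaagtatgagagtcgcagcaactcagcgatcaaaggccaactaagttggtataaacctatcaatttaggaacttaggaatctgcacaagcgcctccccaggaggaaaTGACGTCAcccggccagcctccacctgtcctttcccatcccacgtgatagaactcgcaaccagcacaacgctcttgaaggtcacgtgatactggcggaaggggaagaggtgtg
Snrpb2 is the richest of them in G and C, at 58% against 49.2% for Snrpa1 and 53.6% for Snrpa. In the first of these stretches the peaks of Snrpb2 cover all but 3 bases in replicate 1 and every base in replicate 2.

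Snrpb2 (ENSMUSG00000008333) lies on chromosome 2 from 142888775 to 142898589 on the plus strand in mm9. Its AEBP2 peak scored 137 in replicate 1 and 142 in replicate 2, and it had no peak for FS2-AEBP2 or in either H3K27me3 replicate. These scores ranked 2 of 2877 and 4 of 6779 peaks. The peak ran from 142888528 to 142889341 (814 bp) in replicate 1 and from 142888336 to 142889295 (960 bp) in replicate 2. The peaks shared 768 bp, which is 94.3% of the first and 80.0% of the second. Each peak holds a block of stronger signal that crossed the start site, 725 bp long from −215 to 509 in replicate 1 and 645 bp long from −343 to 301 in replicate 2, in bp from the start site. In replicate 1, 325 bp of the peak lay inside the gene but outside exons, 0 bp in coding sequence, and the rest was shared between untranslated exon and the upstream side. In replicate 2, 439 bp lay upstream, 279 bp inside the gene but outside exons and 0 bp in coding sequence. The peak of Snrpb2 therefore spanned the upstream promoter, untranslated exon and sequence outside exons in both replicates, and no coding exon.

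Snrpa1 (ENSMUSG00000030512) lies on chromosome 7 from 73205185 to 73219468 on the plus strand. Its AEBP2 peak scored 67 in replicate 1 and 103 in replicate 2, and there was no peak in the other 3 lists. These scores ranked 26 of 2877 and 25 of 6779. The peak ran from 73204571 to 73205639 (1069 bp) in replicate 1 and from 73204922 to 73205821 (900 bp) in replicate 2, with 718 bp shared. The stronger block of replicate 1, 356 bp from −24 to 331, lay whole within that of replicate 2, 810 bp from −229 to 580. Both peaks took in 273 bp of untranslated exon and 82 bp of coding exon, and they differed in how far they reached upstream, 614 bp against 263 bp. Both genes of the U2 protein pair thus had their peaks across the start site and among the highest 1% of scores of each list.

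Snrpb (ENSMUSG00000027404), the gene of the SmB and SmB′ proteins, lies on chromosome 2 from 129997150 to 130005139 on the minus strand. Its AEBP2 peak scored 5 in each replicate, above only 26.7% of the first list and 25.2% of the second. It ran from 130004864 to 130005096 (233 bp) in replicate 1 and from 130004548 to 130005111 (564 bp) in replicate 2, so that it began 43 and 28 bp into the gene. The first peak lay whole within the second, but their stronger blocks, of 186 and 249 bp, shared 0 bp. Unlike the U2 genes, Snrpb had no AEBP2 peak over the start site used here, the 5′ end of the gene, or upstream of it. Another annotated transcript of Snrpb starts 100 bp further on, and both peaks cover that start.

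Snrpd1 (ENSMUSG00000002477), the gene of SmD1, had a peak in replicate 2 alone, with a score of 6, above 35.2% of that list. The peak was 195 bp long and began 32 bp into the gene, over 85 bp of untranslated exon, 14 bp of coding exon and 96 bp outside exons. In replicate 1 the nearest peak was 430 kb away. The low-scoring peaks of Snrpb and Snrpd1 fell below the median score of 7 of both lists.

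**Figure D2:**
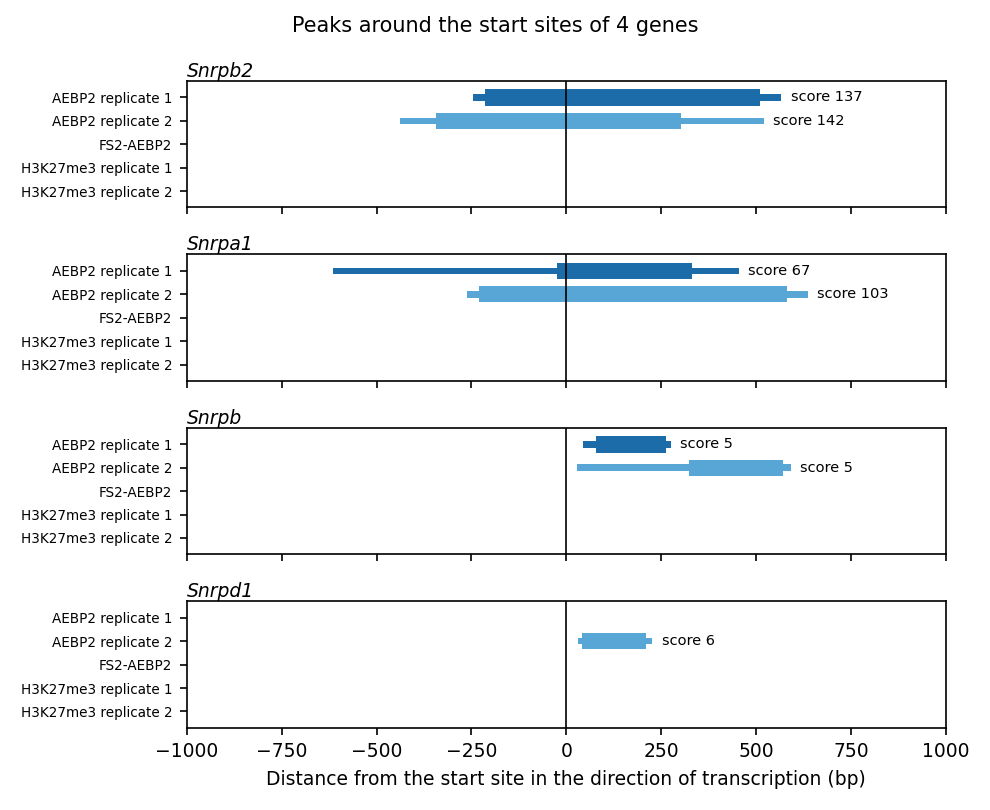
Positions of the AEBP2 peaks of Snrpb2, Snrpa1, Snrpb and Snrpd1 as distance in bp from the start site, along the direction of transcription, with 1 row for each of the 5 lists and the stronger block drawn thicker. The FS2-AEBP2 and H3K27me3 rows are empty, the peaks of Snrpb2 and Snrpa1 cross the start site, and those of Snrpb and Snrpd1 lie after it.

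The other 4 Sm genes, Snrpd2 (ENSMUSG00000040824), Snrpd3 (ENSMUSG00000020180), Snrpe (ENSMUSG00000090553) and Snrpf (ENSMUSG00000020018), had no promoter peak in any list. The same held for the U1 genes Snrpa (ENSMUSG00000061479) and Snrpc (ENSMUSG00000024217). No peak lay just beyond the edge of these promoters. The nearest AEBP2 peak in replicate 2 was 17.9 kb from Snrpd2, 41.3 kb from Snrpd3, 51.0 kb from Snrpf, 80.8 kb from Snrpa, 188 kb from Snrpe and 205 kb from Snrpc. For Snrpd3 and Snrpf, H3K27me3 peaks lay close to that distance, at 37.0 and 34.0 kb for Snrpd3 and at 48.9 and 48.5 kb for Snrpf in replicates 1 and 2.

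H3K27me3 was also far from the start sites, with the closest peaks at the 2 genes of chromosome 2 that carry AEBP2. For Snrpb2, a peak of 381 bp with a score of 3 lay 3382 bp upstream in replicate 2, above 5.35% of its list, while the nearest peak in replicate 1 was 481 kb away. For Snrpb, a peak of 1264 bp with a score of 3 lay 4718 bp upstream in replicate 1, above 9.97% of its list, and the nearest in replicate 2 was 113 kb away. Each was thus a low-scoring peak that the other replicate lacked. At the other 8 genes the nearest H3K27me3 peak was at least 31.3 kb away, the distance in replicate 1 for Snrpd2. The names of the H3K27me3 files seem to carry the opposite replicate numbers to the sample records, which were followed, so which replicate is which is uncertain there.

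The nearest FS2-AEBP2 peak was 31.3 kb (Snrpd2) to 1510 kb (Snrpa) away, with a median of 398 kb over the 10 genes. For Snrpb2 it was 1210 kb away and for Snrpa1 367 kb. The highest-scoring endogenous peaks of the family thus had no counterpart for the tagged protein in their surroundings. The tag, the plasmid, the protocol and the sample number differ between the tagged and endogenous lists, and the labels and methods give the line differently. Both endogenous lists rest on the polyclonal antibody made in the study, and its specificity at these peaks was not tested here. The part of each of these in the difference cannot be told apart.

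Among all promoters, 19 (0.0849%) had AEBP2 scores at least as high as those of Snrpa1 in both replicates, and Snrpb2 and Snrpa1 are 2 of them. Some of the 19 are pairs of neighbouring genes that share 1 peak. Of the 19, 2 had H3K27me3 and 4 had an FS2-AEBP2 peak, neither being the case for the snRNP genes. The 4 are 2 pairs of neighbouring genes, Exoc2 with Gm5447 and Ccdc59 with BC067068, and each pair has the same scores in both replicates, so they stand for 2 loci. They are named after their values were seen. Promoters with AEBP2 were then set apart by H3K27me3. In replicate 1 the median length of the highest-scoring promoter peak was 442 bp without the mark (n = 615) and 1949 bp with it (n = 1417), and in replicate 2 it was 536 bp (n = 2487) and 1781 bp (n = 2496). At 814 to 1069 bp, the peaks of Snrpb2 and Snrpa1 were longer than most without the mark and shorter than most with it. Scores of 50 or more were held by 6.99% of the promoters without the mark and 0.212% of those with it in replicate 1, and by 3.66% and 1.12% in replicate 2. In the FS2-AEBP2 list the shares ran the other way, with 0 of 154 promoters without the mark and 12.7% of 1306 with it. The cut of 50 was read within each list and need not be equally strict in all of them. The median scores of endogenous AEBP2 were not higher without the mark, while those of FS2-AEBP2 were higher with it, as its shares were. Without and with the mark they were 7 and 7 in AEBP2 replicate 1, 7 and 9 in replicate 2, and 6 and 12 for FS2-AEBP2.

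A total of 38 promoters had scores of 50 or more in both AEBP2 replicates and no H3K27me3, Snrpb2 and Snrpa1 among them. Their peaks had a median length of 795 bp in replicate 1 (290 to 1493 bp) and 867.5 bp in replicate 2 (498 to 2071 bp), and all 38 held a CpG-island-like region. Both U2 genes belong to the 38, so their peaks lie inside these ranges by construction. In both replicates these peaks were longer than the medians. FS2-AEBP2 peaks were found at 4 of the 38 (10.5%) and at 24 of the other 499 promoters with AEBP2 in both replicates and no mark (4.81%). The 4 are the gene pairs named above, so they stand for 2 loci. Another gene also started within 1 kb at 15 of the 38 and 196 of the 499, and the other counts were not reduced to loci. Snrpb is 1 of those 499, with peaks shorter than their medians of 430 and 653 bp.

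**Figure D3:**
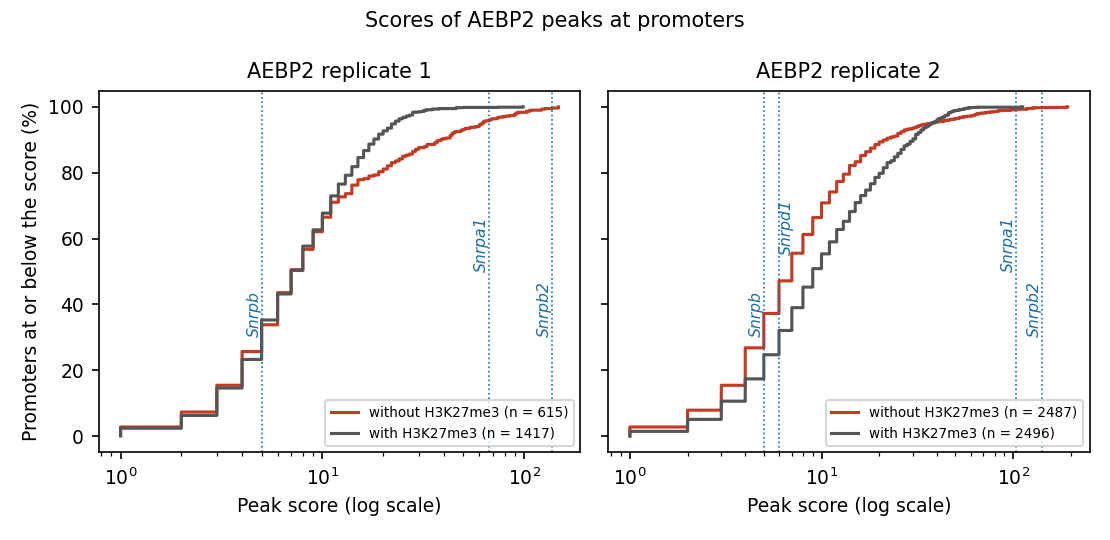
Cumulative share of promoters (%) by the score of their AEBP2 peak (log axis), in replicates 1 and 2, for promoters with and without H3K27me3. Dotted lines give the scores of the snRNP genes, with Snrpb2 and Snrpa1 at the far right and Snrpb and Snrpd1 in the lower part of both curves.

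The base composition of the 10 promoters was compared with that of CpG-island-like promoters without H3K27me3, over 1 kb around the start site. Such promoters with AEBP2 in both replicates (528) had a median GC content of 61.2% with 75 CpG pairs, and those with no AEBP2 peak (6289) had 59.0% with 63. Snrpb2 had 56.2% with 55 pairs and Snrpa1 56.4% with 56, below both medians. Snrpb had 60% with 75. Of the genes without a peak, Snrpe was highest in GC content at 61.6% with 78 pairs, and Snrpc lowest at 50.8% with 47. The genes with the highest AEBP2 scores were thus not those richest in CpG. Another gene started within 1 kb of Snrpa, Snrpd2, Snrpd3, Snrpe and Snrpf, which all lacked a peak, and of none of the 4 genes with AEBP2. Over CpG-island-like promoters without the mark, a second start was found at 39.6% of those with AEBP2 in both replicates and at 30.8% of those with none.

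Short words bound by known factors were searched on both strands from 250 bases before to 50 after the start site. GGGCGG was found in 7 of the 10 genes and in 43.4% of all promoters (67.6% of CpG-island-like promoters without the mark), and CCAAT, an NFY word, in 4 (Snrpb, Snrpd2, Snrpd3 and Snrpf) and 37.9%. CCGGAAG, an ETS factor word, was found in Snrpb, Snrpb2, Snrpd1 and Snrpe and in 10.8% (21.8%). At Snrpb2 its matches begin at 2 and 21, and a GGGCGG match begins at −5 and runs across the start site, so none of these is in capitals above. TGACGTCA was found in Snrpa and in 2.32%. TCTCGCGA (1.35%), CGCATGCG (an NRF1 word, 2.23%) and AAGATGGC (a YY1 word, 3.3%) were found in none of the 10. Among the 537 promoters with AEBP2 in both replicates and no mark, these last words were found in 7.08%, 17.1% and 6.33%. The shares of CpG-island-like promoters without the mark were 2.97%, 4.76% and 5.66%. Between the same 2 sets the words held by the family and given so far were slightly lower among the 537. CCGGAAG was found in 19.0% against 21.8% and GGGCGG in 66.3% against 67.6%. CCAAT was found in 37.2% against 39.6% and TGACGTCA in 2.79% against 4.02%. No word was shared by Snrpb2, Snrpa1 and Snrpb other than GGGCGG, which 4 genes without a peak in both replicates also held. TGCGCA, searched after the values had been seen, was found at −104 of Snrpb2 and in Snrpd3, which has no peak. It was found in 9.39% of all promoters, 16.8% of CpG-island-like promoters without the mark and 41.3% of the 537 with AEBP2 in both replicates and no mark. Among these 537 it was found in 9 of the 38 with scores of 50 or more in both replicates (23.7%), the class of Snrpb2, and in 213 of the other 499 (42.7%).

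Other genes of splicing were taken from 5 lists of the particles and their assembly, of which 73 of 75 were matched. AEBP2 in both replicates without H3K27me3 was found at 8 of the 73 (11%) and at 2.40% of all promoters. Of the 73, 68 held a CpG-island-like region, and among such promoters without H3K27me3 the share was 6.0%. The 10 snRNP genes gave 30%, in a family chosen on Snrpb2. By list these were 3 of 23 other U1 and U2 genes, 2 of 17 of the U4/U6.U5 particle, 2 of 9 LSm genes, 1 of 16 Sm assembly genes and 0 of 8 of the minor spliceosome. Txnl4a, a U5 protein, scored 43 and 84 in replicates 1 and 2. Lsm7 and Lsm5, of the Sm-like rings, scored 44 and 67, and 54 and 48. Sf3a2, a U2 protein, scored 11 and 16. Tia1, which helps U1 bind weak splice sites, scored 7 and 24. Snrnp70, the U1-70K gene, scored 5 and 18. Wdr77, of the complex that methylates Sm proteins, scored 5 and 13, and Sart1, of the tri-snRNP, 3 and 7. None of them reached the scores of Snrpb2 or Snrpa1 in both replicates. None of the 73 had H3K27me3 in both replicates, and Ddx20 and Zcrb1 had it in replicate 2 alone. Over all promoters the mark had peaks at 17.0% in replicate 1, 17.7% in replicate 2 and 19.8% in either.

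Ribosomal protein genes, another set active in all dividing cells, gave 9 of 79 (11.4%) for the cytosolic and 5 of 77 (6.49%) for the mitochondrial ribosome. The share of the other splicing genes was 11%, and that of CpG-island-like promoters without H3K27me3 was 6.0%. FS2-AEBP2 peaks lay at 11 of the 79 cytosolic genes and 0 of the 77 mitochondrial genes. They lay at 3 of the 73 other splicing genes and none of the 10 snRNP genes. FS2-AEBP2 had peaks at 6.53% of all promoters and 1.68% of CpG-island-like promoters without H3K27me3. Genes of these lists differ in number, and the differences between them were not tested.

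**Figure D4:**
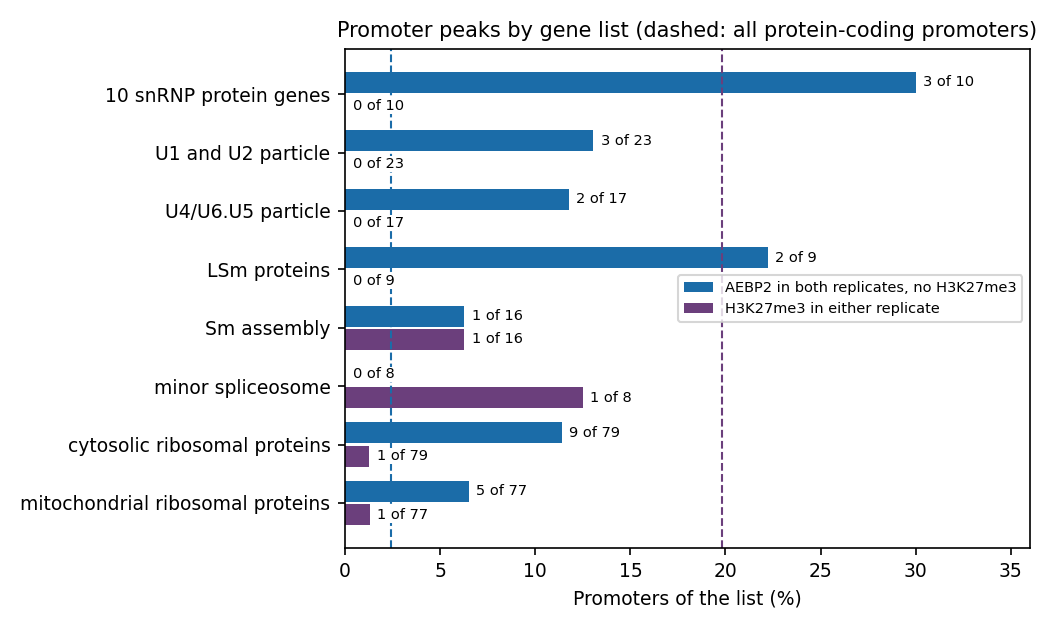
Share of promoters (%) with an AEBP2 peak in both replicates and no H3K27me3 (blue) or with H3K27me3 in either replicate (purple), for the 10 snRNP protein genes, 5 other splicing lists and 2 ribosomal protein lists, with the number of genes beside each bar. Dashed lines give the shares of all promoters, 2.40% and 19.8%, and the blue snRNP bar, from a family chosen on Snrpb2, stands at 30%.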

How the data were processed

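ChIP-seq peaks were called by the authors in each sample and deposited with positions, stronger blocks and a whole-number score of unstated scale. The submitters' processing notes name mm9, Bowtie, SAMtools, Picard and MACS2 2.0.10.2, without roles. Thresholds and control libraries are not given in the sources used here. Only peaks of the assembled chromosomes entered, so 2 of 2879 were dropped in AEBP2 replicate 1 and 13 of 9288 in H3K27me3 replicate 2. Start sites were the 5′ ends of GENCODE vM1 protein-coding genes. Where a promoter held several peaks, the highest score was taken. CpG-island-like regions were windows of 500 bp, every 10 bp, with at least 55% GC and a CpG ratio (observed over expected) of 0.65 or more. The overlap code was checked on made-up lists. The genes and lists were chosen with earlier results of these data known. All 10 genes were named, and of the splicing lists those with AEBP2 in both replicates and no H3K27me3. No test was run. Python 3.11.15 with numpy 2.4.6, pandas 2.3.3 and matplotlib 3.10.9 was used.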

Additional observations from a re-analysis of the deposited data

How the results depend on the processing

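No paired analysis was possible because the peak lists gave counts of genes and no test. Of the 45 alternative values, 38 stayed within the limit set for a change. That limit let a count of 3 genes become 2 or 4, and part of the 38 are counts of 0 that stayed 0. The number of the 10 genes with H3K27me3 or FS2-AEBP2 was 0 under every alternative run for it. AEBP2 peaks that cover the start site, or whose score reaches the median of the list, left Snrpb2 and Snrpa1, which gives 2 genes in replicate 2 in place of 4 and 2 in replicate 1 in place of 3. The share of all promoters with AEBP2 in both replicates and no H3K27me3 was 1.37% with scores at or above the median and 4.29% where a CpG-island-like region was required, in place of 2.40%. With 1 AEBP2 or H3K27me3 replicate left out in turn it ran from 2.43% to 11.1%, the highest being without AEBP2 replicate 1, and the number of snRNP genes ran from 3 to 4, Snrpd1 being added. Snrpb2 scored above 99.51% and 99.8% of peaks at promoters without H3K27me3, against 99.93% and 99.94% of all peaks, in replicates 1 and 2. Unknown depth limits every statement that a peak is absent.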

Other observations

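Of the 73 other splicing genes, 3 had an FS2-AEBP2 promoter peak, against 6.53% of all promoters. None of these 3 genes had H3K27me3. They were named after their values were seen. Prmt5, the methyltransferase of Sm proteins, scored 13, Tia1 scored 12 and Puf60, a factor of 3′ splice site recognition, scored 3. Tia1 had endogenous AEBP2 peaks in both replicates, and Prmt5 and Puf60 had them in replicate 2 alone, with scores of 8 and 19.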
